A study of Mus musculus with 64 samples.

Results

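Slc2a1, Hk1, Hk2, Pfkl, Pfkp, Pfkfb3, Pfkfb4, Aldoa, Pgk1 and Eno1 code for proteins of the entry and the trunk of glycolysis. These 10 genes were chosen by name, with earlier results of these data known. All 10 were found among the 39017 genes of the count table, and all 10 were among the 14134 genes that passed the filter on low counts. Their lowest count in any library was between 36 for Pfkfb3 and 6617 for Eno1. Expression was measured by RNA sequencing in 64 libraries of mouse pancreatic tumor lines and is given as counts scaled to the library total (CPM).

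Glycolysis breaks glucose down to pyruvate and yields ATP without oxygen. Slc2a1 codes for the GLUT1 transporter, which carries glucose into the cell. The hexokinases Hk1 and Hk2 phosphorylate glucose and so trap it. Phosphofructokinase, of which Pfkl and Pfkp code for the liver and platelet forms, commits the sugar to glycolysis. Pfkfb3 and Pfkfb4 make and remove a bisphosphate that activates phosphofructokinase. Aldoa splits the sugar into trioses, and Pgk1 and Eno1 act on the trioses downstream, Pgk1 at the first step that yields ATP. Pancreatic tumors are known for high glucose use. Several of these genes are known targets of the hypoxia-inducible factors, with Slc2a1, Hk2, Pfkfb3, Aldoa and Pgk1 as examples. The examples are not a full list, and a gene left out of them may also be a target. Whether the factors act on any of the genes in these lines was not tested.

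The study subcloned a polyclonal line from a single pancreatic tumor of a KPC mouse, which carries Pdx1-Cre with Trp53 +/R172H on a mixed C57BL/6 background, into 7 clones, with Cre driven by the promoter of the pancreatic factor Pdx1. It placed clones E, H and V in group 1 and clones K, M, N and T in group 2 by their metabolites. KPC1, an eighth line, was placed in neither group, and the sources used here say no more of it. For every line, 4 libraries come from the line grown alone and 4 from tumor cells that were sorted on GFP after 48 h with fibroblasts. All 8 lines are cultured cells, each clone is 1 subclone, and the labels do not say whether replicates were separate cultures or whether mono-cultures were sorted. P-values within a line therefore measure the spread between libraries, which may be technical.

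The 10 genes lie on 8 chromosomes of GRCm38, the build the files use (mm10). Slc2a1 is at chr4:119108711-119137983 and Eno1 at chr4:150236721-150248879, Hk2 at chr6:82725025-82774454, and Hk1 at chr10:62268855-62379908 with Pfkl at chr10:77986947-78010083. Pfkp is at chr13:6579768-6648777, Pfkfb3 at chr2:11471433-11554077, Pfkfb4 at chr9:108991778-109032228, Aldoa at chr7:126795234-126800751 and Pgk1 at chrX:106187100-106203699. All values are counts over exons of these genes. Exons of Pfkp share 748 bases with those of Pitrm1, which is on the opposite strand and was at a mean of 208.55 CPM, and whether strand was used in counting is not given in the sources used here.

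The promoters of 4 of the 5 genes that rose across the lines in coculture and held ACGTG, the core of the element that the hypoxia-inducible factors bind, are shown as examples. Aldoa, the other gene, held it in 2 of its 3 listed windows, which overlap and share the same match. For Pfkfb3 1 of 2 windows is shown. The sequence is from RefSeq on GRCm38.p6, 250 bases that end just before the start RefSeq annotates, in the direction of transcription. Capitals mark ACGTG or, for a match on the other strand, CACGT, and matches on both strands overlap where CACGTG occurs.
Slc2a1, chr4:119108495-119108744, plus strand: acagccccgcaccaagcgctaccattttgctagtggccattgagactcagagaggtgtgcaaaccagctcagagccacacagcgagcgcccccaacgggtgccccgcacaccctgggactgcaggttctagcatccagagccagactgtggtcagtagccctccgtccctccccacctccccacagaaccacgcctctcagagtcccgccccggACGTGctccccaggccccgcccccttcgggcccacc
Hk2, chr6:82774455-82774704, minus strand: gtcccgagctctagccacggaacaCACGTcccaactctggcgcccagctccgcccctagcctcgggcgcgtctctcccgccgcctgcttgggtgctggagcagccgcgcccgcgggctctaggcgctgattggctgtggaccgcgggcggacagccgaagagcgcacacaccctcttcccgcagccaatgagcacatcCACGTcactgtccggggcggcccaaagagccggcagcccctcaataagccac
Pfkfb3, chr2:11553930-11554179, minus strand: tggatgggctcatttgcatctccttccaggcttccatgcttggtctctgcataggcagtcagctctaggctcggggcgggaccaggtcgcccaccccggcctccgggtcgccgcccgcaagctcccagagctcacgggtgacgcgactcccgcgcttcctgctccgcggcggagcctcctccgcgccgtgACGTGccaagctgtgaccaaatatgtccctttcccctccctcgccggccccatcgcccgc
Pgk1, chrX:106186850-106187099, plus strand: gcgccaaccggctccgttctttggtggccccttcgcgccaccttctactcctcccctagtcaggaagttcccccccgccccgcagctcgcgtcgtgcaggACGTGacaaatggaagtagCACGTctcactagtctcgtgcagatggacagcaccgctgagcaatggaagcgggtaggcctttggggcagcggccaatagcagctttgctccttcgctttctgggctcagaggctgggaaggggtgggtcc
Of all 32851 promoter windows of this length, 16.6% held ACGTG on either strand. The 10 genes have 16 listed promoters, and 7 of them held it, in Slc2a1, Hk2, Pfkfb3, Aldoa and Pgk1. The windows of Aldoa that held it overlap and share the same match. Hk1, Pfkl, Pfkp, Pfkfb4 and Eno1 had no match in these windows. A match is a description of the letters and not a bound site. Lack of a match in these windows does not show that a gene is no target of the hypoxia-inducible factors.

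Libraries held between 11178721 and 21333683 counts, and each of the 64 was most highly correlated with a library of its own line and culture. Of 16 fibroblast markers, the summed level ran from 48.9 to 1231 CPM in mono-culture and from 345 to 2498 CPM in coculture, with Lum and Thy1 at 0 counts in all mono-cultures. Clone K stood apart in mono-culture, at 914 to 1231 CPM. Among single markers, Cxcl12 reached 1109.8 CPM in mono-culture and no other exceeded 119 CPM, the highest of Col3a1. Cxcl12 did not pass in coculture (0.95, SE 0.86, adjusted p = 0.383 by edgeR). The 8 epithelial and ductal markers summed to 2028 to 4499.8 CPM without and 1715 to 3883 CPM with fibroblasts. Krt8, Krt18, Krt19 and Sox9 had the highest medians, while Krt7, Muc1 and Epcam had medians of at most 2.41 CPM in either culture. In mono-culture, Epcam was at 0 counts in 14 of 32 libraries, and Cdh1 ran from 0.854 to 334 CPM. Of the 7 epithelial and ductal markers tested across the lines, 2 fell in coculture, 1 rose and 4 did not pass. Of all genes, 27.4% fell and 27.2% rose in this test. The ductal keratin Krt19 had line means of 169 to 925 CPM in mono-culture and fell by 0.70 (SE 0.12, adjusted p = 0.0024 by edgeR). Krt8 fell by 0.51 (SE 0.22, adjusted p = 0.0809 by edgeR) and Sox9 rose by 0.27 (SE 0.09, adjusted p = 0.026 by edgeR). The 5 macrophage markers summed to 2.31 to 21 CPM in mono-culture and 9.3 to 57.6 CPM in coculture, where Adgre1 was at 0 counts. Cd68 made up nearly all of these sums, at 2.31 to 21 and 9.17 to 57.5 CPM, and no other macrophage marker exceeded 1.04 CPM. The 4 endothelial markers summed to at most 12 and 8.86 CPM, with Tie1 at 0 counts in coculture. In bulk RNA, fewer cells of a type and less RNA per cell cannot be told apart. Across the 8 lines 13 of the 14 fibroblast markers tested rose, where 27.2% of all genes did. The part of fibroblast RNA in the changes below was not tested.

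Within lines, one set of libraries stood apart for the trunk enzymes. The library numbered 4 was the highest of its 4 for Pgk1 in 16 of 16 line-and-culture groups, for Pfkl and Aldoa in 15, for Pfkp in 14 and for Eno1 in 12. Across all genes, 0.170% had replicate 4 highest in at least 14 of the 16 groups. Clone M in coculture shows the size of this, with Pgk1 at 175, 169, 167 and 488 CPM in replicates 1 to 4, so that replicate 4 lay far above the other 3. The pattern held in mono-culture too, where Pgk1 in clone V was at 120.3, 133, 122 and 231 CPM.

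Replicate 4 exceeded the mean of the other 3 by 0.90 (SE 0.07) on the log2 scale for Pgk1, 0.80 (SE 0.08) for Pfkl, 0.72 (SE 0.10) for Pfkp, 0.62 (SE 0.07) for Aldoa and 0.23 (SE 0.04) for Eno1, in a fit with the replicate number shared by all 16 groups. At the entry steps the differences were 0.17 (SE 0.07) for Slc2a1, 0.02 (SE 0.05) for Hk1 and −0.07 (SE 0.07) for Hk2. Pfkfb4 was 0.20 (SE 0.07) higher in replicate 4. For Pfkfb3, replicate 3 was instead the highest in 12 of 16 groups, and 0.44 (SE 0.09) above the other 3. This contrast was chosen after the values had been seen, so it is given with no test.

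Among 12 hypoxia targets outside glycolysis, the median difference of replicate 4 was 0.56, against −0.00 over all genes tested. Ankrd37 (1.80, SE 0.17), Bnip3 (1.07, SE 0.12), a mitophagy factor, P4ha1 (0.63, SE 0.07), a collagen prolyl hydroxylase subunit, and Kdm3a (0.49, SE 0.05), a histone demethylase, were among those higher in replicate 4, and Vegfa (−0.06, SE 0.07) was not. These 4 higher genes and Vegfa were named after their values were seen. The fibroblast markers also lay higher in replicate 4 (median 0.57 over the 14 tested), and their sum in coculture had a median of 1303 CPM there against 649.7, 854 and 954 CPM in replicates 1 to 3. Library totals were similar, with medians between 14884148 and 16137142 counts for the 4 numbers. The cause was not tested, and the calls within a line that change without replicate 4 are named below.

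**Figure D1:**
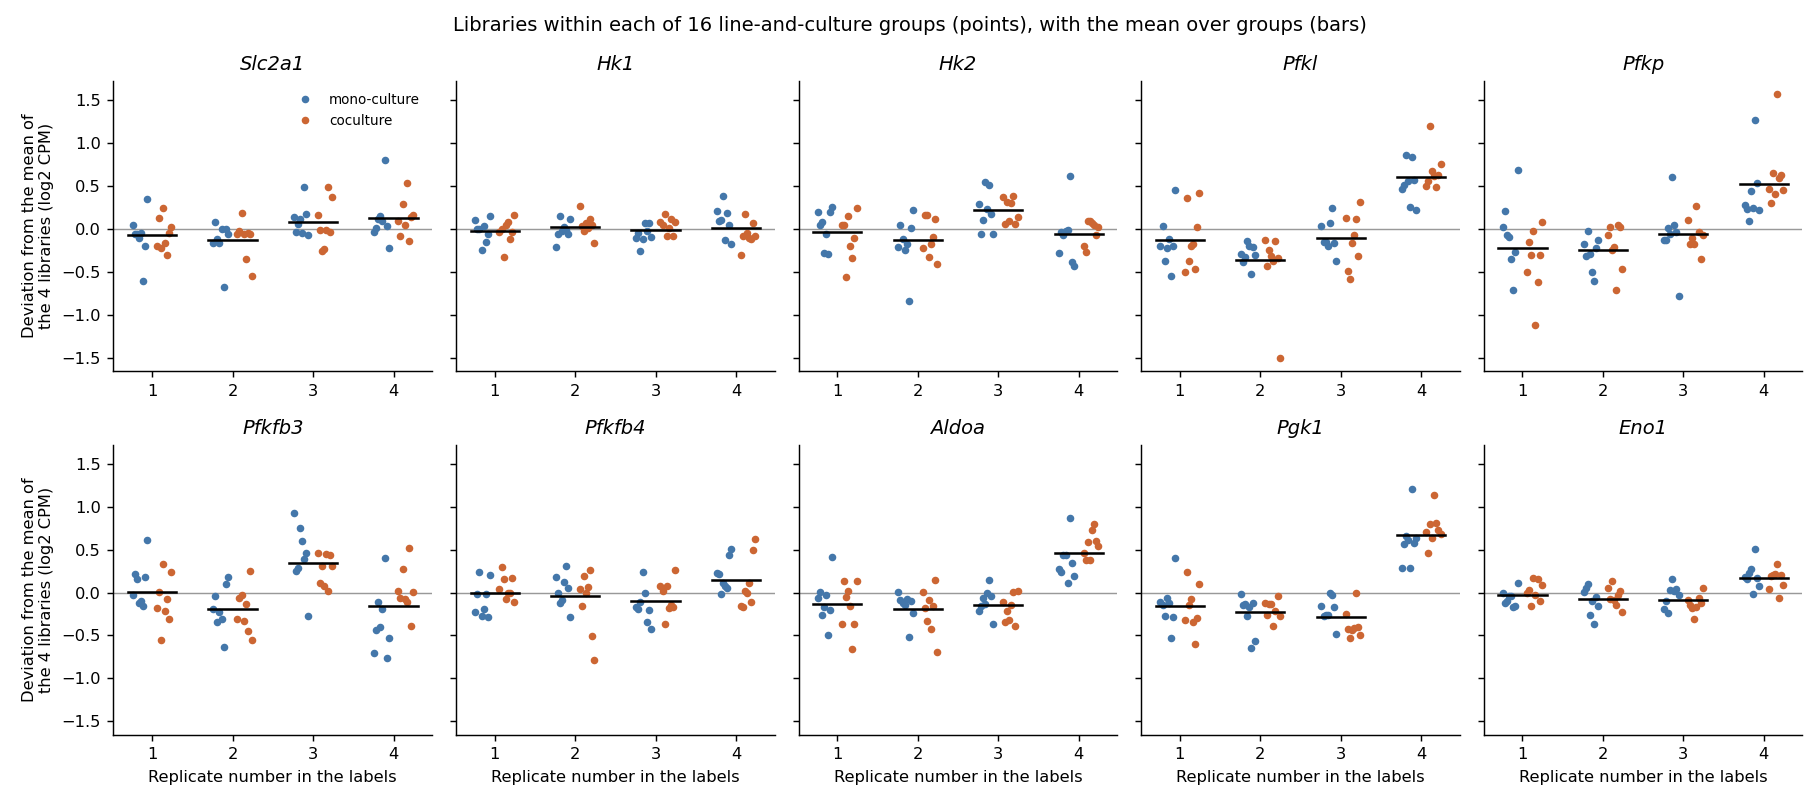
Deviation of each library from the mean of its 4 libraries (log2 CPM, vertical axis) by replicate number (horizontal axis) for the 10 genes, with blue points for mono-culture, orange points for coculture and bars for the mean over 16 groups. Pgk1, Pfkl, Aldoa and Pfkp lie high in replicate 4 in both cultures, Pfkfb3 in replicate 3, and Hk1 in none.

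Deviations of single libraries from their group means moved together for some pairs, described here over 64 libraries that share lines, cultures and replicate numbers. The pair Aldoa and Pgk1 had r = 0.93, Pfkl and Aldoa 0.88, Pfkp and Aldoa 0.84, and Hk2 and Pfkfb3 0.78. In clone N in mono-culture, replicates 3 and 4 stood apart from 1 and 2 at the entry steps as well. Slc2a1 was there at 136, 129, 289.8 and 360.3 CPM and Hk2 at 137, 93.5, 239 and 256 CPM. In KPC1 in coculture, replicate 2, the library with the lowest total, held Pfkl at 35.6 CPM against 126 to 171 CPM in the other 3.

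In mono-culture, the lines differed in all 10 genes (edgeR quasi-likelihood F test over 8 lines, adjusted p between 1.37e-17 for Hk2 and 0.0231 for Pgk1). Of all genes tested, 95.1% passed this test, so 10 of 10 is close to the background. The widest span was that of Pfkp, from 61.4 CPM ± 24.9 (SD, n = 4) in KPC1 to 5.71 CPM ± 0.272 in clone V, a ratio of 10.8 that exceeded that of 87.7% of genes. Pfkfb3 spanned 7.99-fold, from clone H to clone T, and Hk2 4.79-fold, from KPC1 to clone K. The narrowest were Eno1, at 1.77-fold, and Hk1, at 1.85-fold, against a median of 2.26-fold over genes with a mean above 0 in every line.

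Hk2 was highest in KPC1, at 257, 251, 207 and 160.1 CPM in mono-culture. Clone N (above) and clone V (163, 142, 165 and 146 CPM) overlapped KPC1 and each other. Clone H, at 122, 122, 113 and 115 CPM, lay below every library of V but within the wide range of N. Clones T, E, M and K lay between 36.6 and 77.5 CPM, below every library of the other 4 lines, and overlapped their neighbors in rank.

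Pfkp separated KPC1, N and T from the other 5 lines. KPC1 was at 92.6, 52.6, 33.6 and 67.0 CPM, N at 17.5, 18.8, 29.7 and 69.3 CPM and T at 18.8, 19.3, 22.1 and 32.7 CPM. The other 5 lines were all between 5.24 and 12.7 CPM, below every library of these 3, and their neighbors in rank overlapped.

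Slc2a1 had its highest means in N, whose libraries are given above, and in KPC1, at 199, 149.6, 149 and 134 CPM. Every library of KPC1 lay above those of E, M, K, T, H and V, while the lowest of N fell just inside the range of clone E. V was at 67.0, 63.9, 72.4 and 75.6 CPM, with no overlap with clone H above it (92.4, 103, 94.3 and 97.3 CPM). Clones E, M, K, T and H were at 87.8 to 130.4 CPM and were not separated from their neighbors in rank.

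The regulators followed another order. Pfkfb4 was highest in H (27.3, 27.6, 24.3 and 32.1 CPM) and V (28.2, 21.9, 22 and 23.6 CPM), and no library of the other 6 lines exceeded 18 CPM. Pfkfb3 was highest in H, at 34.4, 28.7, 35.2 and 21.8 CPM, and lowest in T, at 4.09, 3.87, 4.98 and 2.11 CPM, with overlap between all neighbors in rank. Hk1 was highest in clone K, at 337, 392, 368 and 519 CPM, and lowest in KPC1, at 241, 234, 203 and 192 CPM, again with overlap between all neighbors. Neighbors also overlapped throughout for Pfkl, Aldoa, Pgk1 and Eno1. The differences in Pfkl and Pgk1 were the least stable: Pgk1 lost its call without replicate 1 (adjusted p = 0.321) and Pfkl without replicate 1 (0.171) or replicate 3 (0.176).

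**Figure D2:**
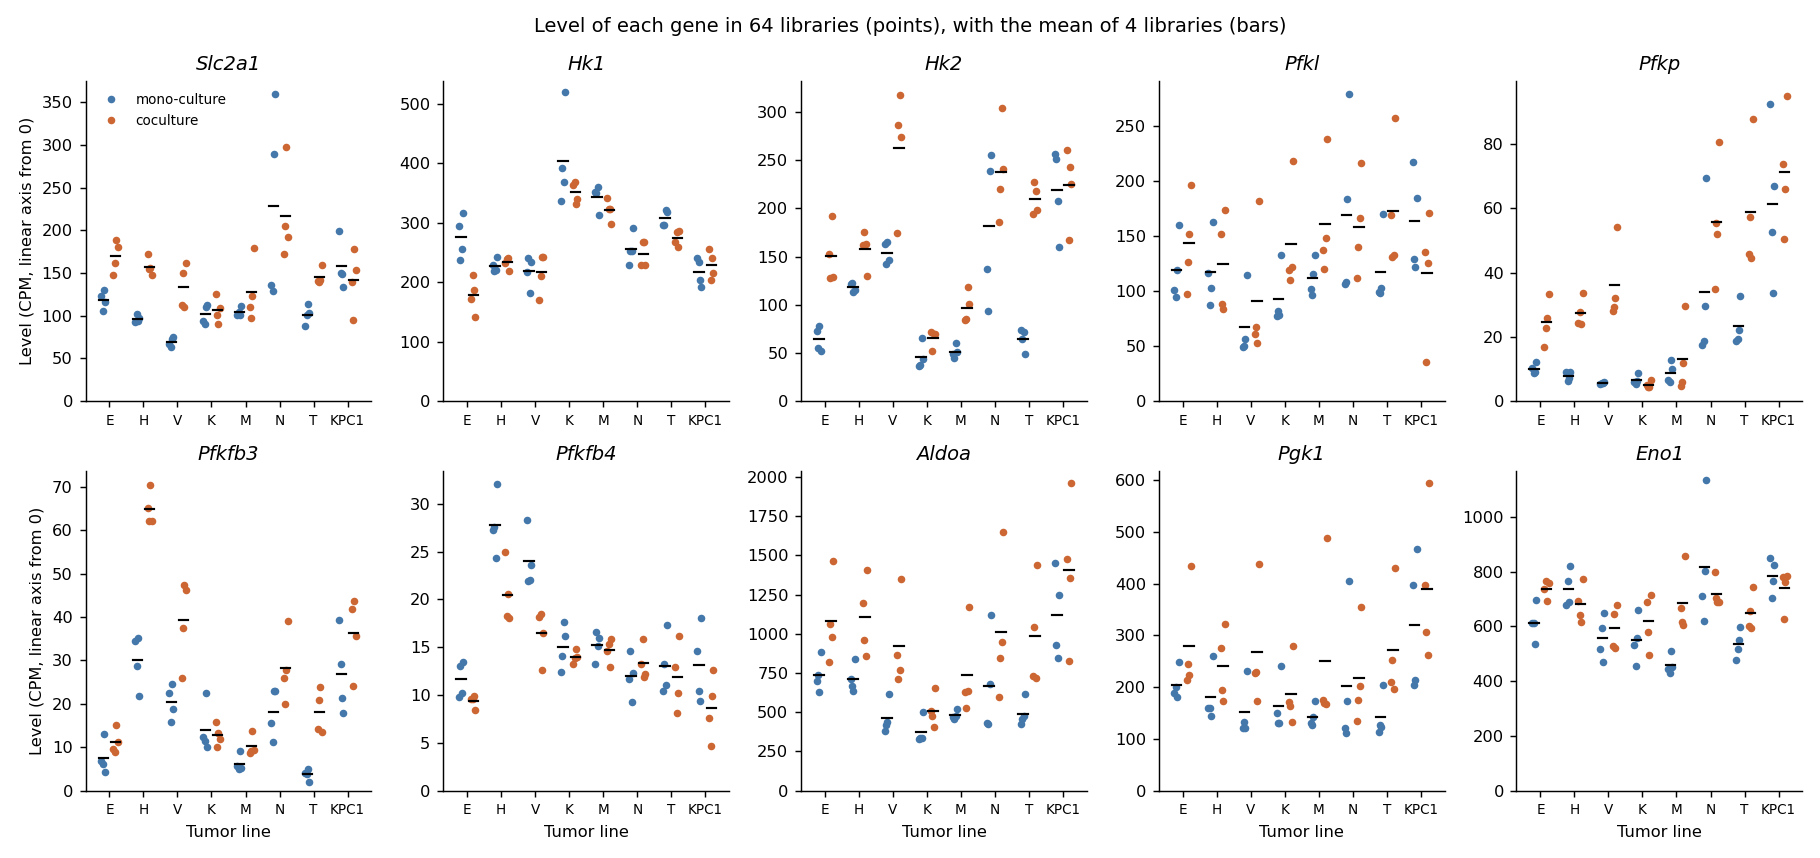
Level of each of the 10 genes (CPM, vertical axes from 0) in the 8 lines (horizontal axis), with blue points for the 4 mono-culture libraries, orange points for the 4 coculture libraries and black bars for their means. Pfkp in clone V moves from 5.71 to 36 CPM on average and Hk2 in clone T from 64.6 to 209 CPM, with no overlap, while Pfkl and Pgk1 overlap in every line.

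In coculture, 7 of the 10 genes changed across the 8 lines, 6 of them upward (edgeR quasi-likelihood test on 16 sums with line as covariate, adjusted p under 0.1). Aldoa rose by 0.65 on the log2 scale (SE 0.08, adjusted p = 0.000894), Hk2 by 0.75 (SE 0.16, 0.00514), Pgk1 by 0.50 (SE 0.11, 0.0054), Pfkfb3 by 0.81 (SE 0.22, 0.0135), Pfkp by 1.02 (SE 0.29, 0.0182) and Slc2a1 by 0.36 (SE 0.12, 0.0338). Pfkfb4 fell by 0.25 (SE 0.09, 0.051). Hk1 (−0.13, SE 0.08), Pfkl (0.25, SE 0.12) and Eno1 (0.13, SE 0.08) did not pass, with adjusted p of 0.206, 0.103 and 0.241. Coculture changed a large share of the transcriptome: 54.6% of all genes passed this test, 27.2% upward and 27.4% downward. The 7 of 10 genes called in either direction are close to that background, and the 6 of 10 called upward stand beside 27.2% over all genes. The median change was 0.43 over the 10 genes and −0.00 over all genes tested. The 6 rises kept their call under all 19 alternatives tried, and the fall of Pfkfb4 was lost under 5 of them, with adjusted p up to 0.138. Pfkl passed under 7 of the 19, DESeq2 among them, with adjusted p from 0.00313 to 0.216. Hk1 and Eno1 passed under 1 each, the replicate block. With that block 10 of 10 genes passed, beside 79% of all genes, in a fit whose error is the spread between libraries and not between lines.

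Taken line by line, 35 of 80 pairs of gene and line changed, 31 upward and 4 downward, against 45.6% of all gene and line pairs (23.7% upward and 21.9% downward). Clones E, V and T had 7 changed genes each, where 61.3%, 61.5% and 62.2% of all genes changed. Clones H and M had 5 each (44% and 38.9% of all genes) and N had 2 (37.4%). Clone K had 1, where 20.5% of all genes changed, and KPC1 had 1, where 39.2% did. Both the call and a fold of at least 1.5 were reached in 24 of the 80, against 25% of all pairs. Libraries of the 2 cultures did not overlap in 24 of 80 pairs, where 35.3% of all pairs did not overlap.

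The labels number the libraries in 2 series, of 43 and 21 libraries, and the changes were also computed within each. In the first, 27 of 70 pairs passed, and in the second, with few libraries a line, 10 of 50, where 41% and 13.2% of all pairs passed. Hk2 in clone T changed by 1.97 in the first series and by 1.46 in the second, and Pfkfb3 in T by 2.89 and 1.64. Pfkp in V, which had both cultures in the first series only, changed by 2.44 there. Pgk1 in T passed in the second series (1.47, adjusted p = 0.0091) and not in the first (0.43, adjusted p = 0.485), with 2 libraries of each culture in each. With the series as a covariate, 34 of 80 pairs passed, beside 45.1% of all pairs.

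**Figure D3:**
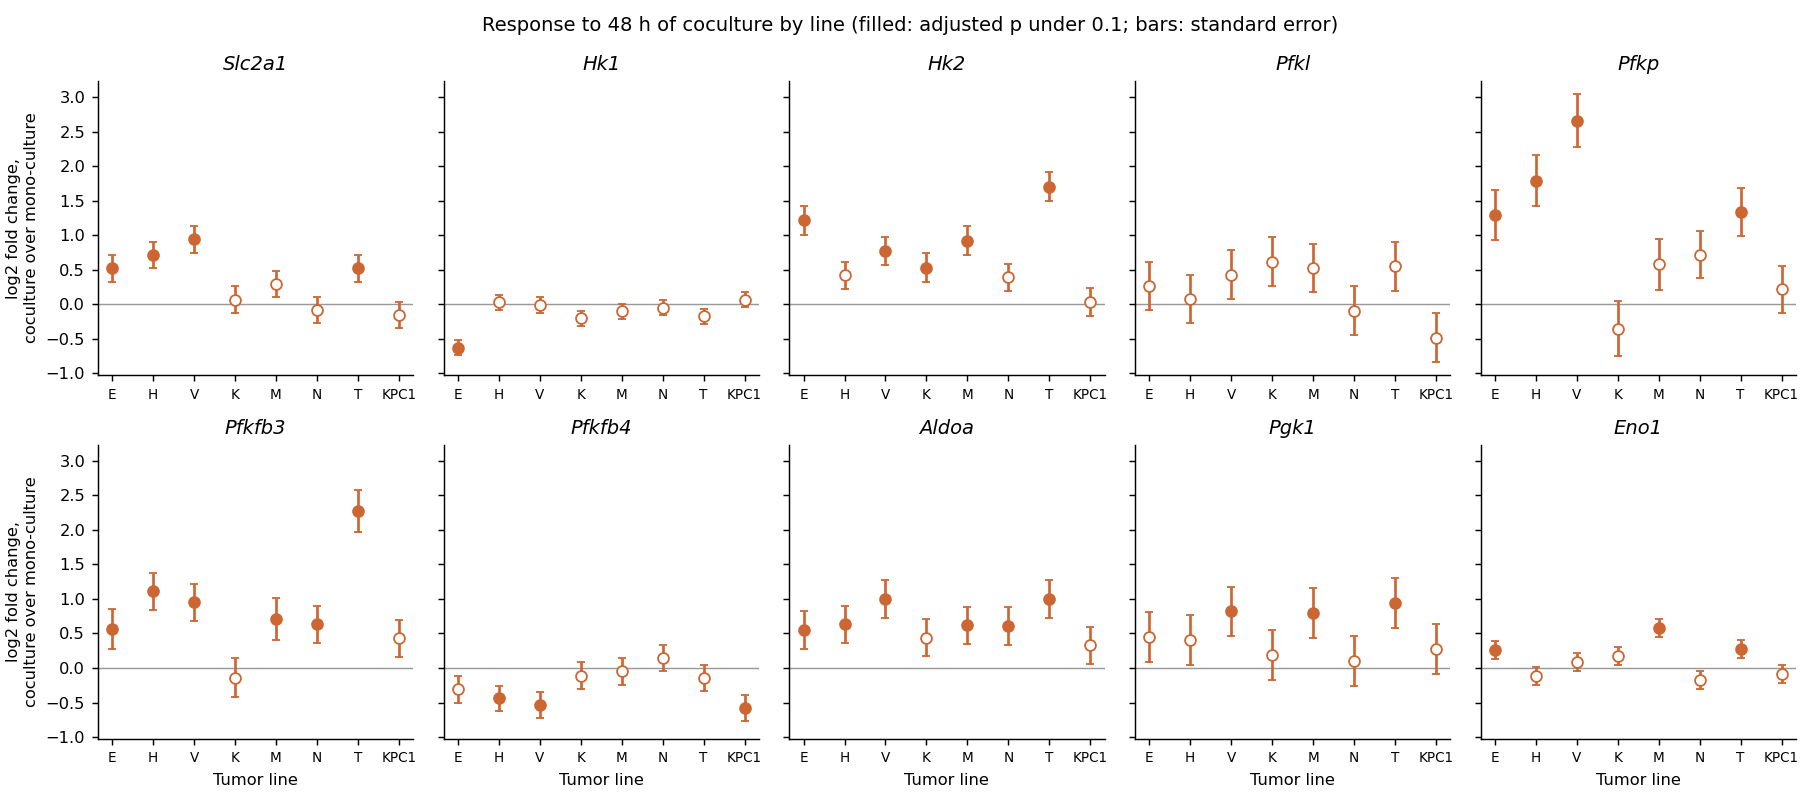
Log2 fold change of coculture over mono-culture (vertical axis) in each line (horizontal axis) for the 10 genes, with standard errors as bars and filled points for an adjusted p under 0.1. Pfkp runs from −0.35 in K to 2.66 in V, and Pfkl has no filled point.

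At the transporter, the rise was seen in clones E, H, V and T. In V, Slc2a1 went from the values above to 113, 151, 111 and 162 CPM in coculture (0.94, SE 0.20, adjusted p = 5.47e-05). In H it went to 172.3, 154, 156 and 148 CPM (0.71, SE 0.19, 0.00332). Both moves left the cultures without overlap, as did those in E (0.52, SE 0.19, 0.0205) and T (0.52, SE 0.19, 0.0183). In N, the line with the highest level, coculture libraries were at 172.4, 205, 298 and 193 CPM, inside the range of its mono-cultures, and K, M and KPC1 did not pass. The responses of the 8 lines differed (F test of the interaction, adjusted p = 0.00307). That test was passed by 6 of the 10 genes and by 71.3% of all genes.

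Between the hexokinases, Hk2 rose and Hk1 did not. Hk2 in clone T was at 73.3, 64.3, 72.0 and 48.7 CPM in mono-culture and at 194, 227, 218 and 199 CPM in coculture (1.70, SE 0.21, adjusted p = 1.43e-09). In clone E it went from 72.8, 54.5, 77.5 and 52 CPM to 153, 127, 192 and 129 CPM (1.22, SE 0.21), and in clone M from 49, 45.2, 59.9 and 50.6 CPM to 83.7, 85.0, 118 and 101 CPM (0.92, SE 0.21). The cultures did not overlap in these 3 lines, nor in V (0.77, SE 0.20) or H. In H the test did not pass (0.42, SE 0.20, adjusted p = 0.1, against 0.0919 in DESeq2). The rise in clone K (0.53, SE 0.21, adjusted p = 0.0759) was lost without replicate 1, 2 or 4. In clone N (0.39, SE 0.20, adjusted p = 0.135) Hk2 passed without replicate 4 (0.60, adjusted p = 0.065) and with the replicate number as a block (0.48, adjusted p = 0.0189). The deviations of all 4 same-numbered pairs of libraries correlated above 0.1 in N alone (0.23 to 0.291). In V (0.073 to 0.206) and M (0.0645 to 0.144), as in N, each mono-culture library was also closest to the coculture library of its own number. Pfkp in N also passed with the replicate block (0.88, adjusted p = 0.00174, against 0.109 without it). KPC1, the line with the most Hk2 in mono-culture, was at 261, 167, 243 and 225 CPM in coculture, within the range of its mono-cultures apart from 1 library.

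Without a replicate block, Hk1 changed only in clone E, among the 8 lines tested. There it went from 295, 237, 256 and 316 CPM to 171, 211, 186 and 142 CPM (−0.63, SE 0.11). Its other lines were between −0.20 in K and 0.07 in KPC1. In T its libraries did not overlap between the cultures, yet the change of −0.17 (SE 0.11) did not pass, and the responses differed between the lines (adjusted p = 0.00256 for Hk1 and 4.8e-05 for Hk2). Per kilobase of exon, levels of different genes can be compared as far as the exon lengths taken hold. On this scale Hk1 and Hk2 were the main hexokinase transcripts, and Hkdc1, the next, was at most 2.61% of the family in mono-culture. The share of Hk2 in the family was 24.4% ± 4.5 (SD, n = 4) in clone E in mono-culture and 53.4% ± 5.81 in coculture. In T it was 22.7% ± 3.51 and 51.4% ± 2.08, in V 50.2% ± 4.91 and 62.8% ± 3.07, and in K 14.0% ± 4.23 and 20.9% ± 2.84. The mean share was higher in coculture in 7 of 8 lines, and in KPC1 it was 58.2% ± 3.01 in mono-culture and 57.7% ± 2.81 in coculture.

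**Figure D4:**
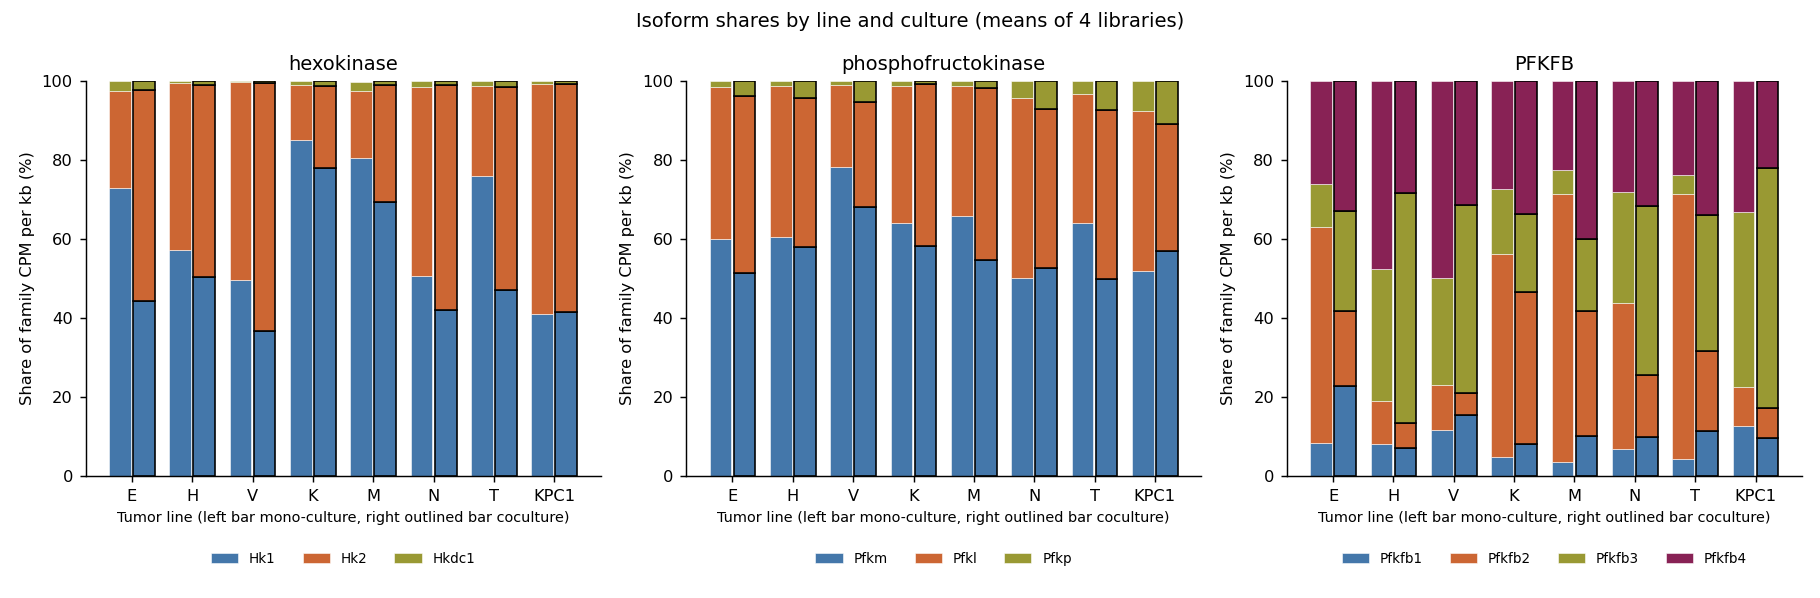
Share of each isoform in the CPM per kilobase of its family (vertical axis, %, means of 4 libraries) in the 8 lines (horizontal axis), with the left bar for mono-culture and the outlined right bar for coculture. Hk2 takes 24.4% and then 53.4% of hexokinase in clone E, Pfkp stays at or below 10.8% of phosphofructokinase, and Pfkfb3 takes a larger share in coculture in all 8 lines.

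Of the phosphofructokinase forms described, Pfkp rose and Pfkl did not pass. Pfkp in clone V was at 5.43, 5.59, 5.74 and 6.07 CPM in mono-culture and at 28.2, 29.3, 32.1 and 54.3 CPM in coculture (2.66, SE 0.38, adjusted p = 7.37e-08). In H it went from 9.0, 6.25, 7.14 and 9.17 CPM to 24.4, 27.7, 24.1 and 33.6 CPM (1.79, SE 0.37). E (1.29, SE 0.36) and T (1.34, SE 0.35) also rose, in all 4 lines without overlap.

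In clone K, Pfkp was at 6.03, 5.24, 6.17 and 8.7 CPM in mono-culture and 4.93, 4.32, 4.45 and 6.69 CPM in coculture, which did not pass (−0.35, SE 0.40). In clone N (0.72, SE 0.34, adjusted p = 0.109) the call turned on replicate 4: without it the rise was 1.11 (adjusted p = 0.00301). The responses of Pfkp differed between the lines (adjusted p = 9.09e-05). Pfkp was nonetheless at most 7.46% of the family per kilobase in mono-culture and at most 10.8% in coculture, both in KPC1, and Pfkm, the muscle form, was the largest share in 8 of 8 lines in mono-culture. These shares depend on the exon lengths taken, 13401 bases for Pfkp and 6675 for Pfkl. The ratio of CPM to the deposited RPKM gave 10.35 kb for Pfkp and 4.75 kb for Pfkl.

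Without a replicate block, Pfkl was called in 0 lines by edgeR and in 0 by DESeq2. In 0 lines was its unadjusted p under 0.05 in that edgeR fit, and its cultures overlapped in all 8. With the replicate number as a block, edgeR called Pfkl upward in T, K, M and V and downward in KPC1, with values given at the end. In KPC1, replicate 2 in coculture, the library with the lowest total, held Pfkl at 35.6 CPM, beside 128.9 CPM in mono-culture. In replicates 1, 3 and 4 Pfkl went from 218, 122.3 and 185.1 CPM to 135.5, 125.6 and 171.2 CPM. In clone V it was at 49, 50.4, 57 and 115 CPM in mono-culture and 61.5, 67.2, 53.3 and 182 CPM in coculture. Replicate 4 was the highest library of each culture there. Its changes were between −0.48 (SE 0.35) in KPC1 and 0.62 (SE 0.35) in K, and without replicate 4 it passed in KPC1, downward (−0.66, adjusted p = 0.0726), and in T, upward (0.53, adjusted p = 0.1 after rounding). The difference between the lines did not pass (adjusted p = 0.383).

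The PFKFB regulators moved in opposite directions. Pfkfb3 rose in 6 of 8 lines, most in clone T, from 4.09, 3.87, 4.98 and 2.11 CPM to 14.2, 20.9, 23.8 and 13.4 CPM (2.27, SE 0.30, adjusted p = 1.28e-08). In H it went to 65.2, 62.1, 70.3 and 62.1 CPM (1.11, SE 0.27) and in V to 26, 37.5, 47.4 and 46.2 CPM (0.95, SE 0.27), all 3 without overlap. The calls in E (0.57), M (0.71) and N (0.63) were each lost without replicate 1, 2 or 4. In K it was −0.14 (SE 0.28), and the responses differed between the lines (adjusted p = 0.000238).

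Pfkfb4 fell in H (−0.44, SE 0.18), V (−0.54, SE 0.19) and KPC1 (−0.58, SE 0.19), with overlap except in V, where it went to 18.2, 18.5, 12.6 and 16.4 CPM. The call in H was lost without replicate 2 or 4 and that in KPC1 without replicate 1. Its other lines were between −0.31 and 0.15, and the difference between the lines did not pass (adjusted p = 0.133). Pfkfb2, a form not among the 10, fell across the lines by 1.34 (SE 0.24, adjusted p = 0.00276). The mean share of Pfkfb3 in the family per kilobase was higher in coculture in 8 of 8 lines, for example 4.78% ± 2.19 and then 34.2% ± 10.9 in clone T, and that of Pfkfb2 was lower in 8 of 8, in T 67.1% ± 3.54 and then 20.3% ± 3.12. In K the mean level of Pfkfb3 was itself lower in coculture, at 1.86 and then 1.69 CPM per kilobase, and its share was 16.6% and then 19.8% while Pfkfb2 went from 5.83 to 3.29 CPM per kilobase.

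On the trunk, Aldoa rose in most lines. Its change was between 0.33 (SE 0.27) in KPC1 and 1.00 (SE 0.27) in V and T, it passed in 6 lines, and the difference between the lines did not pass (adjusted p = 0.631). In V it went from 380.1, 419, 436 and 615 CPM to 866, 711, 770.1 and 1351 CPM, and in T from 423, 454, 474 and 617 CPM to 734, 1046, 721 and 1437 CPM, both without overlap, and H and M did not overlap either. The calls in E, H, M and N had adjusted p between 0.0589 and 0.0822 and were lost without replicate 1, 2 or 3 in each of these lines. In clone M the size of the rise leaned on replicate 4. Coculture was at 630.4, 526, 635 and 1169.6 CPM, against 455 to 521 CPM in mono-culture. Without replicate 4 the change was 0.35 (adjusted p = 0.207 by edgeR), and with all libraries it was 0.62.

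Pgk1 was positive in 8 of 8 lines, and its cultures overlapped in every line. Without a replicate block it passed only in V (0.82, SE 0.36), M (0.80, SE 0.36) and T (0.94, SE 0.36), of the 8 tested. In T it went from 113, 126, 122 and 205 CPM to 209.8, 252, 196 and 429.9 CPM, so that the mono-culture library numbered 4 reached into the coculture range. The call in M, with the values given above, was lost without any 1 of the 4 replicate numbers (0.36, adjusted p = 0.186, without replicate 4), and that in V without replicate 1 or 2. In H it passed without replicate 4 (0.47, adjusted p = 0.057). Its difference between the lines did not pass (adjusted p = 0.64).

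Eno1, the enolase of the pathway's late steps, rose in M (0.58, SE 0.13, adjusted p = 0.000586), E (0.26, SE 0.13) and T (0.28, SE 0.13). In M it went from 446, 429.5, 512 and 452 CPM to 665, 615, 604 and 859 CPM without overlap. The calls in E and T were lost without replicate 1 or 2, and that in E also without replicate 3. In the other 5 lines the change was between −0.18 in N and 0.17 in K, and the lines differed (adjusted p = 0.00513). In coculture the mean of Eno1 spanned 1.25-fold over the 8 lines, and 1.05% of genes had a smaller span.

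Levels of Aldoa, Pgk1 and Eno1 relative to other genes are uncertain. The ratio of CPM to the deposited RPKM, divided by exon length, was 8.65 for Pgk1, 3.1 for Eno1 and 1.51 for Aldoa, against a median of 1.055 and a 95th percentile of 1.284 over 9075 genes. Near-identical copies carried RPKM values. For Eno1 these were Gm4735, a pseudogene, at 86.6 RPKM, and the protein-coding Eno1b, also named Gm5506, at 80.5 RPKM. In the count table they were at 23.1 and 41.3 CPM. Aldoart1 was at 12.9 RPKM and 0.657 CPM, and Pgk1-rs7 at 7.12 RPKM and 0.615 CPM. How reads that fit several places were treated is not given in the sources used here. For the other members, median levels over lines in mono-culture were 31.2 CPM per kilobase for Hk1, 29.4 for Slc2a1, 17.6 for Pfkl, 15.3 for Hk2, 2.89 for Pfkfb4, 2.13 for Pfkfb3 and 0.703 for Pfkp.

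Between the metabolic groups, none of the 10 genes passed an adjusted p under 0.1 in mono-culture (edgeR, sums of 4 libraries per clone, 3 clones against 4), and 0% of all genes did. At an unadjusted p under 0.05 there were 0 of the 10 and 5.17% of all 14829 genes, and DESeq2 gave 0 of the 10. Hk1 was at 280.3, 229 and 219 CPM in E, H and V and at 403, 341, 258 and 306 CPM in K, M, N and T (−0.43, SE 0.19, adjusted p = 0.888 by edgeR). Pfkp was at 10.2, 8.0 and 5.69 CPM in group 1 and 6.53, 8.62, 34.4 and 23.1 CPM in group 2 (−1.19, SE 0.61), and Pfkfb4 at 11.5, 27.8 and 23.7 CPM against 15.1, 15.1, 12.1 and 13 CPM (0.60, SE 0.31). The groups overlapped for all 10 genes in mono-culture, where 5.38% of all genes did not overlap.

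In coculture, 0 of the 10 passed by edgeR and 0 by DESeq2 (0.00679% of all genes by edgeR, the gene Cd34), and 1 had an unadjusted p under 0.05, against 8.57% of all genes. That gene was Hk1, at 177, 237 and 223 CPM in group 1 and 352, 321, 249 and 274 CPM in group 2 (−0.49, SE 0.18, adjusted p = 0.581). Hk1 and Pfkl (141, 128 and 96.2 CPM against 145, 161, 156 and 170.0 CPM) did not overlap between the groups, 2 of 10 genes, where 9.09% of all genes did not overlap.

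For the coculture response, the difference between the groups passed for 0 of the 10 at an adjusted p under 0.1 (0.00637% of all genes by edgeR, and 0 of the 10 by DESeq2). Unadjusted values under 0.05 were found for 3 of the 10, against 7.62% of all genes. They were Pfkp (1.35, SE 0.44, adjusted p = 0.637), Slc2a1 (0.51, SE 0.17, adjusted p = 0.637) and Pfkfb4 (−0.38, SE 0.16, adjusted p = 0.656), all by edgeR. The responses of Pfkp were 1.29, 1.79 and 2.66 in E, H and V and −0.35, 0.58, 0.72 and 1.34 in K, M, N and T, so T reached into the range of group 1. Those of Slc2a1 were 0.52, 0.71 and 0.94 against 0.07, 0.29, −0.08 and 0.52.

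Other glycolysis genes moved less uniformly in coculture. Of 19 further glycolysis enzymes, 14 were tested across the 8 lines, and 6 rose, 2 fell and 6 did not pass, with a median of 0.15. Of all genes, 54.6% passed this test, 27.2% upward and 27.4% downward. Adpgk, an ADP-dependent glucokinase, rose by 0.55 (SE 0.11, adjusted p = 0.00363), the mutase Pgam1 by 0.43 (SE 0.10) and the enolase Eno3 by 0.53 (SE 0.13). Aldoc, the brain aldolase, fell by 0.55 (SE 0.12, adjusted p = 0.0062), opposite in direction to Aldoa. Gapdhs, a sperm form, fell by 1.55 (SE 0.25) at line means under 1 CPM.

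Of 16 other glucose transporters and regulators, 8 were tested, and 4 rose and 1 fell, where 27.2% of all genes rose and 27.4% fell. Arrdc4, an arrestin that limits glucose uptake, rose by 1.98 (SE 0.43, adjusted p = 0.00583) and Tigar, a fructose bisphosphatase, by 0.66 (SE 0.17, 0.0115). Slc2a10 rose by 2.86 (SE 0.79), at line means of at most 0.641 CPM in either culture. Of 20 enzymes of branches that leave glycolysis, 8 rose, 3 fell and 9 did not pass, beside 54.6% of all genes that passed in either direction. Rises included Taldo1 (0.67, SE 0.10) and Rpe (0.47, SE 0.08) of the pentose phosphate pathway and Gnpnat1 (0.76, SE 0.12) of the hexosamine pathway. Falls were seen in Gpd1 (−2.11, SE 0.39) and Gpd1l (−1.35, SE 0.28), which make glycerol phosphate, and in Pgd (−0.35, SE 0.10).

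Of 12 hypoxia targets outside glycolysis, 5 rose and 1 fell across the lines, where 27.2% of all genes rose and 27.4% fell. Their median was 0.34. P4ha1 rose by 0.66 (SE 0.12, adjusted p = 0.00287), Ddit4, an inhibitor of mTOR signaling, by 0.32 (SE 0.11, 0.0318) and the peptide hormone gene Adm by 2.52 (SE 0.44) at line means of at most 1.3 CPM. Kdm3a fell by 0.30 (SE 0.05, adjusted p = 0.00175). Both P4ha1 and Kdm3a lay higher in replicate 4, while their changes in coculture had opposite signs. Between the groups in mono-culture, no gene of these 4 lists passed, and the gene nearest to passing was Pfkfb1 (0.83, SE 0.28, adjusted p = 0.888 by edgeR).

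**Figure D5:**
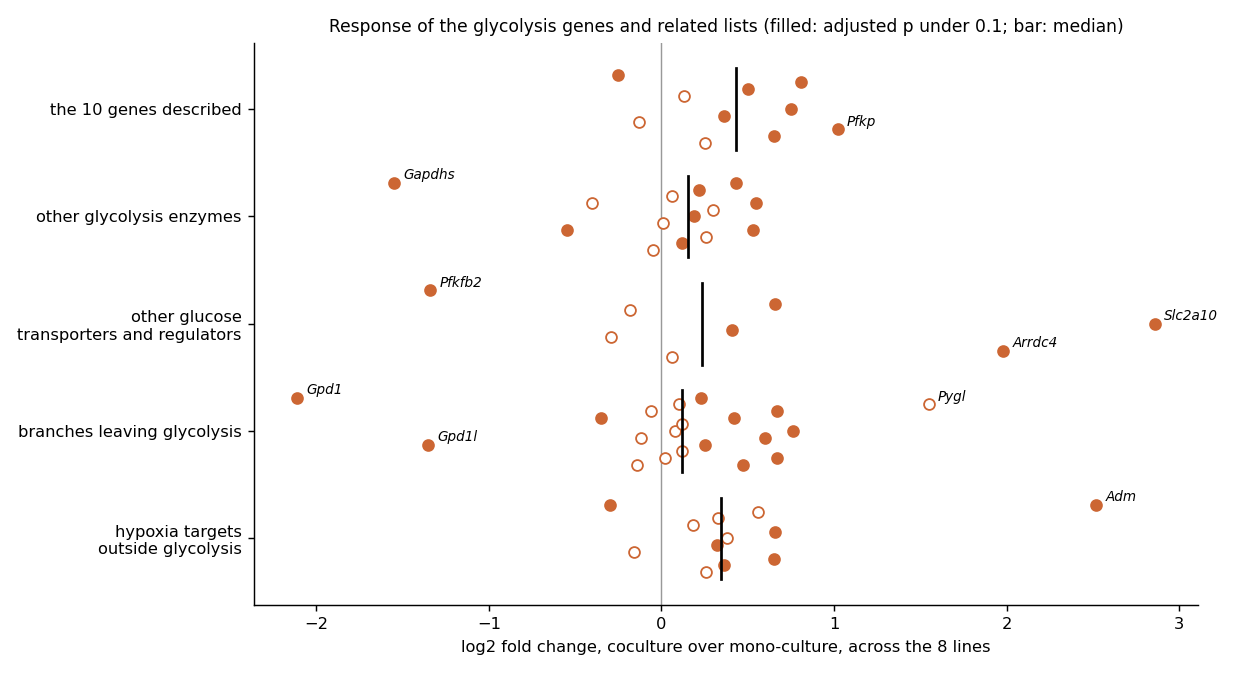
Log2 fold change of coculture over mono-culture across the 8 lines (horizontal axis) for the genes of 5 lists (vertical axis), with filled points for an adjusted p under 0.1 and black bars for the median of each list. The median is 0.43 for the 10 genes described, 0.15 for the other glycolysis enzymes and 0.34 for the hypoxia targets, and names mark genes beyond 1 in either direction.

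Genes with the pattern most like each member were sought over the means of 16 line-and-culture groups, which share lines and cultures, among 14133 genes. For Hk2 they were Dhx8 (r = 0.972) and Ftsj3 (0.958), for Pfkp Ero1l (0.968) and Reep4 (0.962), for Pfkfb3 Eif2b2 (0.943) and Pde3b (0.938), and for Slc2a1 Cdr2l (0.923) and Tead4 (0.889). For Hk1 they were Mbd6 (0.947) and Cab39 (0.935), for Pfkfb4 Sipa1l1 (0.916) and Wdr60 (0.902), and for Aldoa Ipo7 (0.946) and Mecr (0.937). Pgk1 was closest to Atad1 (0.930) and then to Aldoa (0.911), the only member found in this way for another. Eno1 was closest to its pseudogene Gm4735 (0.955) and then to Gm5506 (0.919), which may share reads with it, and Pfkl to mmu-mir-6363 (0.840) and Gm1976 (0.832). Among the members, Hk1 and Hk2 had the most negative correlation over the 16 groups (r = −0.78).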

How the data were processed

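RNA was sequenced from 64 libraries of 8 tumor lines, 4 for each line and culture. The deposited counts are raw whole-number counts per gene, made by the authors against mm10. The submitters' processing notes name featureCounts and edgeR without versions. The deposited RPKM values were also made by the authors and served only as an alternative and for the check of lengths. Counts were scaled by TMM and fitted with the quasi-likelihood test of edgeR 4.0.16 in R 4.3.3 after its filter on low counts, with Benjamini-Hochberg adjustment over all genes tested and a threshold of 0.1, in fits of 64 libraries, of 16 sums by line and culture and of 7 sums by clone. A positive log2 change is higher in coculture or in group 1. P-values in the text come from these fits. Alternatives used DESeq2 1.42.0, limma 3.58.1 on log2(RPKM + 1) or log2(RPKM + 0.1), other size factors, no filter, and fewer libraries or lines. Scripts were tested on simulated data. Totals ran from 11178721 to 21333683 counts, so the lowest gene level rested on 36 counts. The 10 genes and all lists were chosen with earlier results of these data known. The other genes named were, from each list, up to 3 that passed in each direction across the lines and up to 2 for the groups, by smallest p, and for likeness the 2 highest correlations per gene. Another allele of the model is not reported here.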

Additional observations from a re-analysis of the deposited data

Results flagged for a closer look

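In 176 groups of 4 libraries, a single library was called far from the other 3 where its gap to the nearest, divided by the range of the group, exceeded Dixon's critical value for 4 samples. Chance gives this in about 1 in 20 groups. It was found in 19 groups, and in 14 of them the library was replicate 4 and high. For Pgk1 the quotient was 0.975 in clone M in coculture (488 CPM against 167 to 175), 0.886 in V, 0.876 in H and 0.852 in T in mono-culture, and 0.857 in E in coculture. For Pfkl it was 0.945 in T, 0.925 in K and 0.88 in V in mono-culture, and 0.894 in K and 0.892 in V in coculture. Aldoa had 0.944 in K in mono-culture and 0.831 in M in coculture, Pfkp 0.848 in V in coculture, and Slc2a1 0.871 in T in coculture, where replicate 4 was at 159 CPM against 139.6 to 142.

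The other 5 were of other numbers, all in coculture. Replicate 2 of KPC1 had a low total (0.867, 11178721 counts against 16016171 to 16755693) and low Eno1 (0.861, 628 CPM against 763 to 785). Hk2 was low in replicate 2 of K (0.855, 51.8 CPM against 69.2 to 72.2). Pfkfb3 was high in replicate 3 of M (0.874), and Eno1 in replicate 1 of N (0.868). The causes were not tested.

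For 6 genes the response to coculture differed between the 8 lines by the test of that difference (edgeR, adjusted p of 4.8e-05 for Hk2, 9.09e-05 for Pfkp, 0.000238 for Pfkfb3, 0.00256 for Hk1, 0.00307 for Slc2a1 and 0.00513 for Eno1), which 71.3% of all genes passed. Hk2 was 1.70 higher in T and 0.03 in KPC1 on the log2 scale, and Pfkp 2.66 higher in V and −0.35 in K.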

How the results depend on the processing

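No called value of the 10 genes changed its direction under any alternative run. Of 80 gene and line pairs, 35 passed, and between 22 and 33 passed when replicates 1 to 4 were left out in turn (22 without replicate 1 or 2, where 41.1% and 38.5% of all pairs passed, 29 without replicate 3, beside 37.3%, and 33 without replicate 4, beside 37.1%). The count was 23 at an adjusted p under 0.05, beside 38.7%, and 10 of 50 within the second series of library numbers alone. With the replicate block, 49 of 80 pairs and, across the lines, 10 of 10 genes passed, where 49.9% of all pairs and 79% of all genes did. Pfkl then passed in T (adjusted p = 0.00703), K (0.0102), M (0.0235), V (0.0993) and, downward, KPC1 (0.00595), where replicate 2 in coculture was at 35.6 CPM. Same-numbered libraries of a line were weakly correlated (17 of 32 pairs above 0.1, from −0.0692 to 0.291, with 24 of 32 closest to their own number), so the numbers were not taken to pair the samples except in clone N, where all 4 pairs lay between 0.23 and 0.291. Replicate 4 was still the highest for Pgk1 in 16 of 16 groups, and fits without a block count such a difference as spread between libraries. In N the block added Hk2 (adjusted p = 0.0189) and Pfkp (0.00174) to the calls and changed no other call of the 10 genes. A replicate block shared by all groups, chosen after seeing the data, gave 45 of 80 pairs, beside 47.9% of all pairs, and the difference between the lines then passed for 10 of 10 genes instead of 6, where 74.7% of all genes passed, adding Pfkl (adjusted p = 0.0113), Pgk1 (0.0318), Pfkfb4 (0.0916) and Aldoa (0.0949). With each library as a replicate, 5 of the 10 genes passed between the groups in mono-culture, where 31.8% of all genes did, and 0 with clones as replicates. The causes were not tested. Other counts stayed within 1.5 times. The lowest counts in a library were 36 for Pfkfb3, 50 for Pfkfb4 and 62 for Pfkp, so depth limits these 3 most of the 10.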
